A study of Mus musculus with 60 samples.

Results

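The comparison described here sets dorsal hippocampus of mice taken 45 minutes after Handling against dorsal hippocampus of Homecage mice, with 5 libraries in each group. It was chosen by its table rather than by any measured value, and all 13610 genes of that table are members, out of 13986 genes held in any table of the series. All animals were wild type C57BL/6 mice at postnatal day 105, and poly(A)-enriched RNA was sequenced. The series has 60 libraries in 12 groups, made of dorsal, ventral and whole hippocampus under Homecage, Handling, Restraint and Swim, and Homecage mice are the untreated reference. The labels used here do not say what Handling consisted of, how long it lasted, or whether dorsal and ventral libraries came from the same mice.

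Handling of mice by an experimenter is commonly taken as a milder stimulus than restraint or forced swimming. The dorsal hippocampus serves spatial memory and the coding of context. When its neurons fire, calcium and MAP kinase signals switch on immediate early genes within minutes, without new protein having to be made first. The products are transcription factors of the Fos, Egr and Nr4a families, effectors at synapses such as Arc, and phosphatases that shut the same signal down. Stress also raises corticosterone, which acts through the glucocorticoid receptor on a slower set of genes.

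For each gene the deposited table holds 2 group means as estimated counts, the fold change and the authors' p. Only these group values were used, so the replicate error enters through the authors' p alone. Summed over genes, an average library held 23.4M estimated counts (M, mega) in the Homecage group and 24.1M in the Handling group. Levels are given as CPM, the group mean per mega (M) of those summed counts. The ± value beside a log2 fold change is the standard error that the deposited fold change and p imply together. Most regional markers lay on the side that their list names. In Homecage mice Lct stood at 119 CPM in dorsal and 15.7 CPM in ventral hippocampus, and the ventral markers Dcn and Htr2c at 6.85 and 11.7 CPM in dorsal against 84.8 and 57.4 CPM in ventral. Gsg1l, listed as a dorsal marker, went the other way with 36.2 CPM dorsal and 49.5 CPM ventral, and Cadm2, listed as a ventral one, did too with 245 and 139 CPM.

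Handling changed few genes in dorsal hippocampus, and almost all of them rose. Of 13610 genes in the authors' deposited table, 17 passed an adjusted p of 0.05, which is 0.125% of those tested. Of these, 16 were higher after Handling (0.118%) and 1 was lower (0.00735%). The median log2 fold change of all genes was -0.01. At an unadjusted p of 0.05, 219 genes were higher (1.61%) and 168 lower (1.23%). Together these shares lie below what such a p gives when no gene changes, so the deposited p-values may be cautious. The 16 risen genes include 7 immediate early transcription factors (Egr2, Fos, Fosb, Egr1, Nr4a1, Fosl2 and Npas4) and the synaptic gene Arc. Also among them are the phosphatases Dusp5 and Dusp1, the kinases Sgk1 and Sik1, and Trib1, Tiparp, Xbp1 and Adamts1. The single fallen gene was Ndn.

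**Figure D1:**
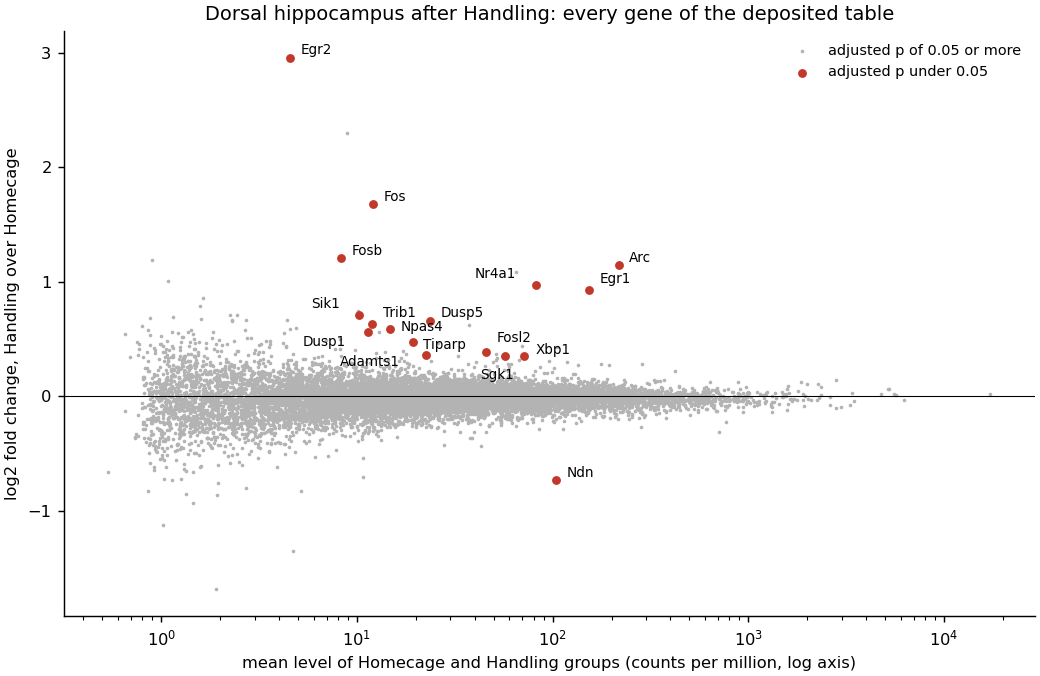
Each point is 1 of the 13610 genes, with the mean level of both groups on a log axis (CPM) and the log2 fold change of Handling over Homecage on the vertical axis. The 17 genes past an adjusted p of 0.05 are red and named: Egr2 stands highest at 2.96, Ndn is the single red point below 0, and the bulk of genes lies close to the line at 0.

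Among the 17 genes that passed, Egr2, Fos and Fosb had the largest changes. Egr2 encodes a zinc finger factor better known for its part in myelination and hindbrain patterning. Its mean level was 1.00 CPM in Homecage and 8.08 CPM in Handling mice, which is 23.4 and 195 estimated counts in an average library. The authors' deposited table puts its rise at 2.96 ± 0.24 on the log2 scale (adjusted p 9.3e-30). Egr1, the most studied member and a marker of recent neuronal activity, went from 104 to 202 CPM, a rise of 0.93 ± 0.12 in the authors' deposited table (adjusted p 2.8e-10). The other 2 members in the table did not pass the test. Egr3 stood at 45.6 and 48.2 CPM (log2 fold change 0.08 ± 0.18), and Egr4 at 10.2 and 15.5 CPM (0.56 ± 0.31, adjusted p 1.00 in the authors' deposited table).

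Fos, the AP-1 subunit used most widely to mark active neurons, stood at 5.66 CPM in Homecage and 18.4 CPM in Handling mice. The authors' deposited table gives a rise of 1.68 ± 0.14 on the log2 scale (adjusted p 3.2e-27). Fosb, whose splice form delta-FosB builds up with repeated stimulation, rose from 5.00 to 11.6 CPM, or by 1.21 ± 0.14 (adjusted p 7.0e-14 in the authors' deposited table). Fosl2 rose less, from 39.4 to 51.8 CPM (0.38 ± 0.08, adjusted p 0.00185 in the authors' deposited table). Fos proteins typically bind DNA as partners of Jun proteins, and none of the Jun genes passed. Junb stood at 28.8 and 45.5 CPM with a log2 fold change of 0.62 ± 0.35, Jun at 84.0 and 81.7 CPM with -0.02, and Jund at 35.1 and 29.9 CPM with -0.24. For Junb the implied error was 11.1 times the error that counting alone would give on the summed counts of both groups, against 1.73 times for Egr2 and 2.26 times for Fos.

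Of the Nr4a orphan nuclear receptors, which act without a known hormone, Nr4a1 passed. It went from 54.7 to 109 CPM, a rise of 0.97 ± 0.14 in the authors' deposited table (adjusted p 1.1e-08). Nr4a2 (44.4 and 58.1 CPM, 0.37 ± 0.09) and Nr4a3 (85.3 and 106 CPM, 0.31 ± 0.08) lay just outside the threshold, with adjusted p of 0.0661 and 0.142 in the authors' deposited table. Npas4, a factor that answers calcium entry into neurons and shapes inhibitory synapses, rose from 11.7 to 17.9 CPM, or by 0.59 ± 0.13 (adjusted p 0.0042 in the authors' deposited table).

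Across the list of immediate early transcription factors, 24 of 26 had a value, and Fosl1 and Maff were not in the table. Of the 24, 7 rose and none fell past the adjusted p, and 14 were higher and none lower at an unadjusted p of 0.05. The list's median log2 fold change was 0.43, beside -0.01 for all genes. Positive values were found for 21 members and negative ones for 3 (Jund, Myc and Jun). Among members that did not pass, Atf3 stood at 1.17 and 2.11 CPM (0.86), Klf4 at 3.60 and 5.49 CPM (0.59), and Nfil3 at 7.24 and 9.29 CPM (0.36). Genes for proteins that work with these factors did not pass. None of 12 partners and corepressors passed and 1 was higher at an unadjusted p of 0.05, with a median of 0.05. Srf, the factor that binds CArG boxes, is on both lists and stood at 61.1 and 65.8 CPM. The Egr corepressors Nab1 and Nab2 stood at 25.5 and 27.2 CPM and at 42.9 and 46.5 CPM.

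The DNA in front of RefSeq starts is shown for 5 genes that rose, picked by hand. What part it plays in their rise was not tested. Marked in it are 2 elements well known from early genes. One is the cAMP response element TGACGTCA, with its core site TGACG, the element that CREB binds. The other is the CArG box, which serum response factor binds. Each sequence comes from the 250 bases before a RefSeq transcription start on GRCm38.p6, 5′ to 3′ on the gene's own strand, and Egr2 has 5 such starts, of which the middle one by position is printed. Where an exon of the same gene in GENCODE M21 reaches into the window, its bases are left out, which are 36 for Dusp5 and 47 for Dusp1. The windows of Egr2, Nr4a1 and Dusp1 lie within the gene's GENCODE span, which begins further upstream, and outside its exons. Capitals mark cAMP response elements, their core sites on either strand, and CArG boxes.
Egr2: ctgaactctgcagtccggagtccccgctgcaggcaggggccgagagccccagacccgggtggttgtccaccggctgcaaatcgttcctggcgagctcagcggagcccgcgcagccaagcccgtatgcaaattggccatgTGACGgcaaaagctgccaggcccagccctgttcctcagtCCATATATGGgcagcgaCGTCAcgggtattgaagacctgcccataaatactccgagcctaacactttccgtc
Fos: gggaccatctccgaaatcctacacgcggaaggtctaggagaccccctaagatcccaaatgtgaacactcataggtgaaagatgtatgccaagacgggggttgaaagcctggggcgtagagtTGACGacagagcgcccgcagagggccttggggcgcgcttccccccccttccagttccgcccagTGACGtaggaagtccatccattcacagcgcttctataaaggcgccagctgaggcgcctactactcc
Nr4a1: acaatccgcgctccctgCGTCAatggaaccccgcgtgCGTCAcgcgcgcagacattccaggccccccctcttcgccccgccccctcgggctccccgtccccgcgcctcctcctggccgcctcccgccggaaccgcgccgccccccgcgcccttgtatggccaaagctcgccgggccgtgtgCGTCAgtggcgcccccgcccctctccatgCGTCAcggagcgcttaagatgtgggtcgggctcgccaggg
Dusp5: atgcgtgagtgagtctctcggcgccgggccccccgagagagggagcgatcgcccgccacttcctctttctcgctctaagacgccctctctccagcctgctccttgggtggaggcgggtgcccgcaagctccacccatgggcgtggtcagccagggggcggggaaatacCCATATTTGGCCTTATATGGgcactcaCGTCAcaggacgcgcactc
Dusp1: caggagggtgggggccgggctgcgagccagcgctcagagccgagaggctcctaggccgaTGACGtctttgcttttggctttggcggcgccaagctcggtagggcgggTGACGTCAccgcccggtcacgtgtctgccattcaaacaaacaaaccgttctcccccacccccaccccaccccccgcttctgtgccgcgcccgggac

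The Egr2 window is chr10:67537619-67537868 (plus strand), that of Fos chr12:85473640-85473889 (plus) and that of Nr4a1 chr15:101266596-101266845 (plus). The Dusp5 stretch is chr19:53528895-53529108 (plus) and that of Dusp1 is chr17:26508520-26508722 (minus). Positions are counted back from the RefSeq start. In the Fos window the core sites begin 129 and 66 bases before the start. Dusp5 has a pair of CArG boxes that begin 82 and 72 bases before its start, with a core site beginning at 55, and Egr2 has 1 CArG box at 72 with core sites at 111 and 55. Dusp1 holds the full element at 143 bases, which also counts as a core site on either strand, and Nr4a1 holds 4 core sites.

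Counted over all risen genes, 12 of 16 had a promoter window here, and 10690 of the tested genes did. Egr1 was left out with all other genes of its chromosome. Arc, Trib1 and Sik1 had no match in the set of RefSeq promoters used here. The core site TGACG was found on either strand in 9 of the 12 (75.0%) and in 30.0% of tested genes. All genes printed above are among these 9, so they are not typical of the 12. A CArG box was found in 2 of the 12 (16.7%), Egr2 and Dusp5, and in 1.38% of tested genes. The full element was in 1 (8.33%, against 321 of the tested genes), the Egr site GCGNGGGCG in 3 (25.0%, against 10.7%) and the AP-1 site TGANTCA in 0 (0%, against 5.37%). A gene with several listed starts counts once if any of its windows holds the motif, so genes with more starts have more chances. These are matches of letters and were given no test, and a motif further upstream than 250 bases was not looked for.

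Beyond transcription factors, Arc was the effector with the largest change. Arc encodes a protein that removes AMPA receptors from synapses and whose mRNA travels into dendrites. It stood at 134 CPM in Homecage and 300 CPM in Handling mice, or 3128 and 7253 estimated counts per library. Its rise was 1.14 ± 0.20 on the log2 scale in the authors' deposited table (adjusted p 1.5e-05). The error implied for Arc was 14.3 times its counting error, the widest among the 17 genes. For Egr1, Ndn and Nr4a1 the same ratio was 7.74, 7.42 and 6.35.

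Trib1, a pseudokinase that directs proteins to degradation, rose from 9.27 to 14.6 CPM (0.63 ± 0.12, adjusted p 2.7e-04 in the authors' deposited table). Tiparp, a mono-ADP-ribosyltransferase, rose from 373 to 544 estimated counts per library (0.48 ± 0.12, adjusted p 0.0442 in the authors' deposited table). With a smooth curve of fold change against GC content taken out (called the GC trend below), Tiparp stood at 0.45 with an adjusted p of 0.0817 and was no longer called. In the list of activity-regulated effectors, 3 of 35 rose and none fell, and 11 were higher and none lower at an unadjusted p of 0.05, with a median of 0.12. The growth factor Bdnf stood at 46.5 and 53.2 CPM (log2 fold change 0.20) and the synaptic scaffold gene Homer1 at 92.4 and 111 CPM (0.25), and neither passed. Members that did not pass ran from -0.30 for Pim1 to 0.49 for Cyr61, with 0.43 for Gpr3, 0.41 for Arl4d, 0.06 for Nrn1 and -0.11 for Vgf among them.

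The feedback arm of the MAP kinase pathway was represented by Dusp5 and Dusp1. Both encode phosphatases that inactivate MAP kinases, Dusp5 being specific for ERK in the nucleus. Dusp5 rose from 18.1 to 29.1 CPM, or by 0.66 ± 0.12 (adjusted p 2.4e-05 in the authors' deposited table). Dusp1 rose from 9.02 to 13.6 CPM, or by 0.57 ± 0.14 (adjusted p 0.0442 in the authors' deposited table). Of 12 measured feedback genes 2 rose and none fell, 5 were higher and none lower at an unadjusted p of 0.05, and the median was 0.19. Spry4, a receptor tyrosine kinase inhibitor, lay just outside at 0.37 ± 0.10 (adjusted p 0.0914 in the authors' deposited table), and Dusp6, a phosphatase for ERK in the cytoplasm, stood at 58.3 and 80.3 CPM (0.44 ± 0.13, adjusted p 0.244).

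Sik1, a kinase that holds the CREB coactivators out of the nucleus and is itself a CREB target, rose from 7.71 to 12.7 CPM. The authors' deposited table gives it 0.71 ± 0.18 with an adjusted p of 0.0442. No other member of the CREB circuit list passed, out of 14 measured with a median of 0.04. Creb1 stood at 50.2 and 55.2 CPM, the coactivator gene Crtc1 at 387 and 383 CPM, and Sik2 and Sik3 at log2 fold changes of 0.05 and -0.01.

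Of the glucocorticoid receptor targets, Sgk1 and Dusp1 rose. Sgk1, a kinase that corticosteroids induce and that regulates ion channels, stood at 49.8 CPM in Homecage and 64.5 CPM in Handling mice. The rise was 0.36 ± 0.08 there (authors' deposited table, adjusted p 0.00474). In this list 2 of 30 measured genes rose and none fell, 12 were higher and none lower at an unadjusted p of 0.05, and the median was 0.18. Several targets lay outside the threshold. Tsc22d3, a leucine zipper protein with anti-inflammatory action, stood at 45.6 and 58.7 CPM (0.34 ± 0.09, adjusted p 0.112 in the authors' deposited table). Fkbp5, a chaperone that dampens the receptor, stood at 76.6 and 85.5 CPM (0.15 ± 0.07). Dusp1 and Errfi1 are on the MAP kinase list too, Per1 on the clock list, and Txnip and Arrdc2 on the alpha-arrestin list. Such genes are counted in both lists.

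Per1 is a clock gene that light and stress induce, and the glucocorticoid receptor binds near it. It stood at 88.5 and 121 CPM, with 0.43 ± 0.12 and an adjusted p of 0.175 in the authors' deposited table. After the GC trend was subtracted it stood at 0.51 with an adjusted p of 0.0197 and was called. None of 18 clock genes passed in the deposited table, 4 were higher and none lower at an unadjusted p of 0.05 (Per1, Per2, Bhlhe40 and Ciart), and the median was 0.07. Among core clock genes, Clock stood at 0.04, Cry2 at 0.02, Cry1 at 0.13 and Per2 at 0.26. The receptors themselves did not move past the test. The glucocorticoid receptor gene Nr3c1 stood at 91.4 and 92.0 CPM (0.01 ± 0.08) and the mineralocorticoid receptor gene Nr3c2 at 249 and 235 CPM (-0.08 ± 0.07). None of 12 receptors and chaperones passed, adjusted or unadjusted.

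Xbp1 encodes the transcription factor that is spliced during the unfolded protein response of the endoplasmic reticulum. It rose from 62.7 to 80.7 CPM, or by 0.36 ± 0.08 (adjusted p 0.00561 in the authors' deposited table). Other genes of protein folding did not pass. Dnajb1, a heat shock cochaperone, stood at 44.0 and 54.6 CPM (0.30 ± 0.08, adjusted p 0.109 in the authors' deposited table). Pdia4, a disulfide isomerase, stood at 45.5 and 57.3 CPM (0.32 ± 0.09), and Hspa5, the main chaperone of the endoplasmic reticulum, at 257 and 316 CPM (0.28 ± 0.11). In the heat shock and unfolded protein list 1 of 24 rose and none fell, 6 were higher and 1 (Chac1) lower at an unadjusted p of 0.05, and the median was 0.14. The inducible heat shock genes Hspa1a and Hspa1b stood at -0.01 and 0.32.

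Adamts1, a secreted protease that cleaves proteoglycans, rose from 19.7 to 25.5 CPM, or by 0.36 ± 0.08 (adjusted p 0.0136 in the authors' deposited table). It was the single member past the test in a list of 12 shear-responsive and endothelial early genes, whose median was -0.03. Apold1, an endothelial early gene, stood at 2.12 and 3.22 CPM (0.58 ± 0.19, adjusted p 0.491 in the authors' deposited table), and Klf2, a factor induced by blood flow, at 3.41 and 5.09 CPM (0.56 ± 0.26). Of that list 5 were higher and none lower at an unadjusted p of 0.05. Klf2 and Klf4 are counted among the immediate early transcription factors too, and Cyr61 among the activity-regulated effectors. Endothelial markers as a list had a median of -0.04, with none of 10 past the test and 1 higher at an unadjusted p. In tissue RNA of this kind, fewer cells of a type and less RNA per cell cannot be told apart.

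Ndn was the gene that fell. It encodes necdin, a growth-restraining protein of neurons expressed from the paternal copy of an imprinted region, and in GENCODE M21 it lies at chr7:62346569-62350262 on GRCm38. Its mean was 3041 estimated counts per library in Homecage and 1891 in Handling mice, or 130 and 78.3 CPM. The change was -0.73 ± 0.14 in the authors' deposited table (adjusted p 2.7e-04). None of the other imprinted genes measured passed, and 8 listed ones, among them its neighbour Mkrn3, had no value. Its neighbours Magel2 and Snrpn stood at 1.01 and 1.09 CPM (0.07) and at 708 and 721 CPM (0.02), and Peg3, which lies elsewhere, at 356 and 363 CPM (0.02). Of 26 measured imprinted genes 1 fell and none rose, and the median was 0.00. At an unadjusted p of 0.05 Sgce was the single one higher, at 0.17 ± 0.09.

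Transmitter receptor, neuropeptide and DNA demethylation lists held no call. None of 15 ionotropic glutamate receptors, 12 GABA-A receptors, 13 neuropeptide precursors or 10 DNA demethylation genes passed, adjusted or unadjusted. Their medians were -0.06, 0.00, -0.03 and 0.02. In the Notch list none of 17 passed, 1 was higher and 2 lower at an unadjusted p of 0.05, and the median was -0.08. Hes5, a Notch target of progenitors and astrocytes, stood at 5.02 and 3.56 CPM (-0.50 ± 0.21, adjusted p 1.00 in the authors' deposited table), Notch3 at 13.9 and 11.4 CPM (-0.30 ± 0.12) and Hey2 at 2.25 and 3.26 CPM (0.51 ± 0.20). Subtracting the GC trend moved Hes5 to -0.36 and Notch3 to -0.20. Thyroid hormone genes had 1 of 6 higher at an unadjusted p, Dio2, the enzyme that activates thyroid hormone, at 0.28 ± 0.08 (adjusted p 0.247 in the authors' deposited table). Of the 5 alpha-arrestin genes, Txnip alone was higher at an unadjusted p, at 16.5 and 19.4 CPM (0.22 ± 0.10).

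**Figure D2:**
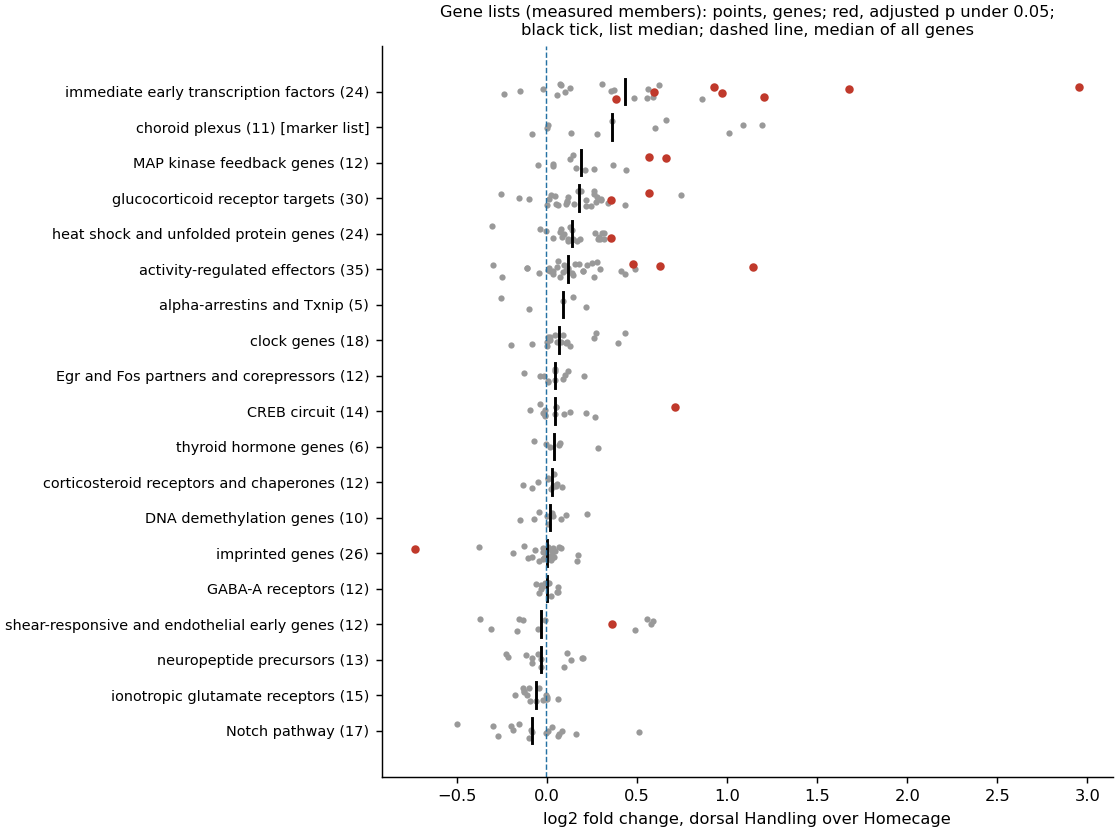
Each point is a gene of a list, placed by its log2 fold change of Handling over Homecage in dorsal hippocampus, and red points passed an adjusted p of 0.05. Black ticks are list medians and the dashed line is the median of all genes: the immediate early transcription factors have the highest median at 0.43, and Ndn is the red point to the left among the imprinted genes.

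Markers of cell types were checked beside these results, and none of the markers on 18 lists passed the adjusted p. Medians were 0.05 for 10 astrocyte markers, -0.02 for 10 oligodendrocyte, 0.02 for 8 microglia and -0.05 for 10 interneuron markers. CA1 pyramidal cell markers had a median of -0.12, which became -0.02 after the GC trend was subtracted, and dentate granule cell markers 0.10. Choroid plexus, the secretory tissue of the ventricles that borders the hippocampus, had the highest median among them at 0.36, with 4 of 11 markers higher and none lower at an unadjusted p of 0.05. Its markers summed to 247 CPM in Homecage and 340 CPM in Handling mice. Ttr, the thyroxine carrier made there, stood at 40.5 and 89.5 CPM (1.09 ± 0.52, adjusted p 1.00 in the authors' deposited table), with an implied error 20.8 times its counting error. Meningeal and blood markers had medians of -0.20 and -0.18.

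The response to Handling in ventral and whole hippocampus comes from other libraries, possibly of the same mice, and gives a separate measurement of the 17 genes. All 17 had the same direction there. Ventral Handling had 118 of 13784 genes past the test (0.856%) and whole Handling 54 of 13668 (0.395%). Of the ventral calls, 14 were choroid plexus markers. Of the 17 dorsal calls, 14 were also called in ventral (82.4% of the dorsal and 11.9% of the ventral calls) and 15 in whole hippocampus (88.2% and 27.8%). All but Adamts1, Trib1 and Xbp1 were called in both. With the GC trend subtracted, 13 were.

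The point values also lay near the dorsal ones. Fos rose there by 2.02 ± 0.16 in ventral and 1.90 ± 0.14 in whole hippocampus, Egr2 by 2.69 ± 0.20 and 2.49 ± 0.22, and Arc by 1.27 ± 0.17 and 1.22 ± 0.11, per the authors' deposited tables. Ndn fell by 0.75 ± 0.12 in ventral and 0.83 ± 0.12 in whole hippocampus in the authors' deposited tables. Xbp1 had the lowest p for a difference from ventral hippocampus, at 0.14 ± 0.06 in ventral against 0.36 ± 0.08 in dorsal hippocampus. Its difference was -0.21 ± 0.10, with an unadjusted p of 0.0336 and an adjusted p of 0.998. None of the 17 differed past an adjusted p of 0.05 from ventral or from whole hippocampus. That does not show equal responses: the 95% interval of the ventral minus dorsal difference ran from -0.07 to 0.76 for Fos, from -0.88 to 0.35 for Egr2 and from -0.38 to 0.35 for Ndn. Over all genes, 12 of 13500 differed between ventral and dorsal hippocampus (0.0889%), none of them among the 17. Between whole and dorsal hippocampus 0 of 13487 did (0%), with 82 at an unadjusted p of 0.05 (0.608%), by the normal test on the difference of both fold changes. For ventral minus dorsal, 336 genes were under that unadjusted p (2.49%). Both shares lie below what such a p gives when no gene differs. The derived errors may therefore be too wide, and real differences may be missed.

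**Figure D3:**
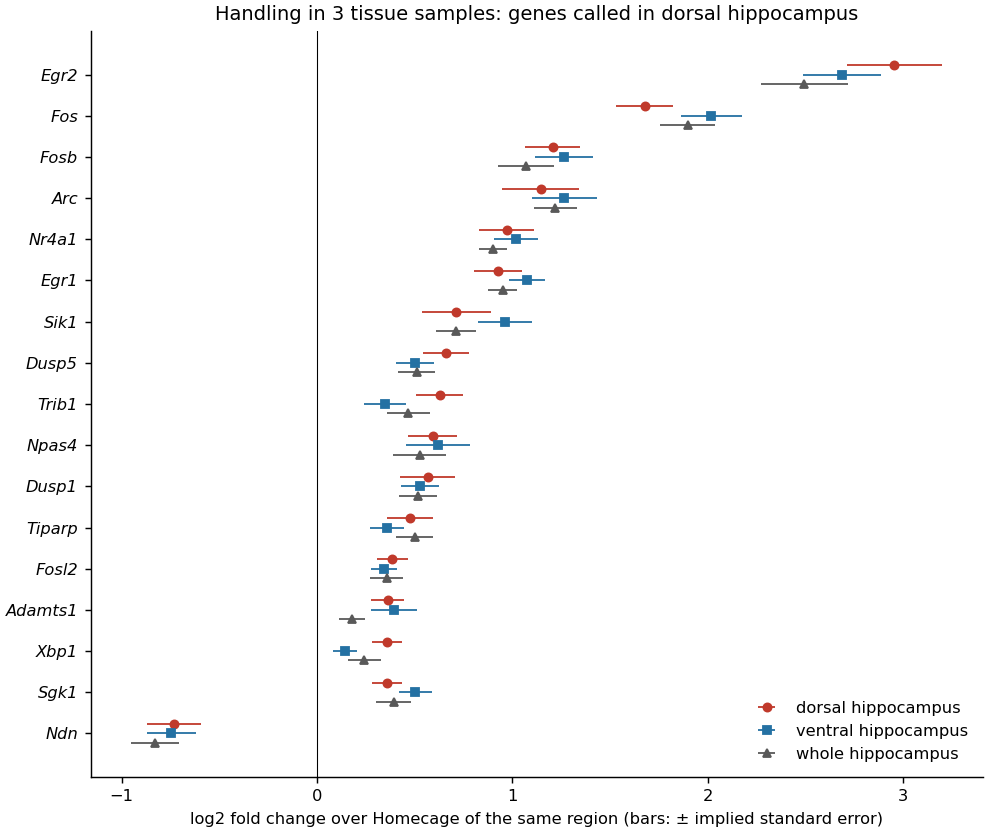
Log2 fold change of Handling over the Homecage group of the same region for the 17 genes called in dorsal hippocampus, with bars of ± the implied standard error. The markers for dorsal, ventral and whole hippocampus lie on the same side of 0 for every gene, and Xbp1 shows a ventral value of 0.14 beside a dorsal one of 0.36.

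Several activity genes started from a higher level in dorsal than in ventral hippocampus of Homecage mice, and others from a lower one. Of 24 immediate early transcription factors, 13 were called lower and 3 higher in ventral hippocampus. Of 35 activity-regulated effectors, 14 were called lower and 4 higher. The share of all genes called between the poles is not given here. Arc stood at 134 CPM in dorsal, 71.6 in ventral and 71.2 in whole hippocampus, and the authors' deposited table of both poles gives ventral over dorsal as -0.93 (adjusted p 3.4e-05). Egr4 stood at 10.2, 3.59 and 4.45 CPM (-1.58, adjusted p 4.1e-08 in the authors' deposited table). Junb stood at 28.8, 14.1 and 15.3 CPM, and its ventral over dorsal value was -1.09 (adjusted p 2.5e-04 in the authors' deposited table). Egr1 and Egr3 were also lower in ventral Homecage hippocampus, with -0.75 and -1.11 (adjusted p 2.4e-12 and 1.2e-18 in the authors' deposited table). For Fos (5.66, 5.55 and 4.93 CPM) and Egr2 (1.00, 0.90 and 1.00 CPM) the 3 Homecage levels were close, and neither regional difference passed. Lists of cell type markers differed between the poles of Homecage mice in both directions. In the authors' deposited table of both poles, the median log2 fold change of ventral over dorsal was -0.01 over all genes. It was -0.85 for 11 dentate granule cell, -0.59 for 10 oligodendrocyte and -0.47 for 9 CA2 and CA3 pyramidal cell markers. For 7 neocortex layer, 8 thalamus and 10 interneuron markers it was 0.67, 0.59 and 0.24. The part of cell types in the levels of the activity genes was not tested.

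Egr4 and Junb, which did not pass in dorsal hippocampus, did in the other tissue samples. After Handling Egr4 rose by 1.39 ± 0.26 in ventral and 0.93 ± 0.16 in whole hippocampus, and Junb by 1.24 ± 0.27 and 0.88 ± 0.16, per the authors' deposited tables. The difference itself did not pass. Ventral minus dorsal was 0.83 ± 0.40 for Egr4 (unadjusted p 0.0390, adjusted p 0.998) and 0.61 ± 0.44 for Junb (unadjusted p 0.168). Their levels after Handling were highest in dorsal hippocampus, at 15.5 CPM for Egr4 and 45.5 CPM for Junb, against 9.60 and 33.8 CPM in ventral hippocampus. No test was made of that difference in level.

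**Figure D4:**
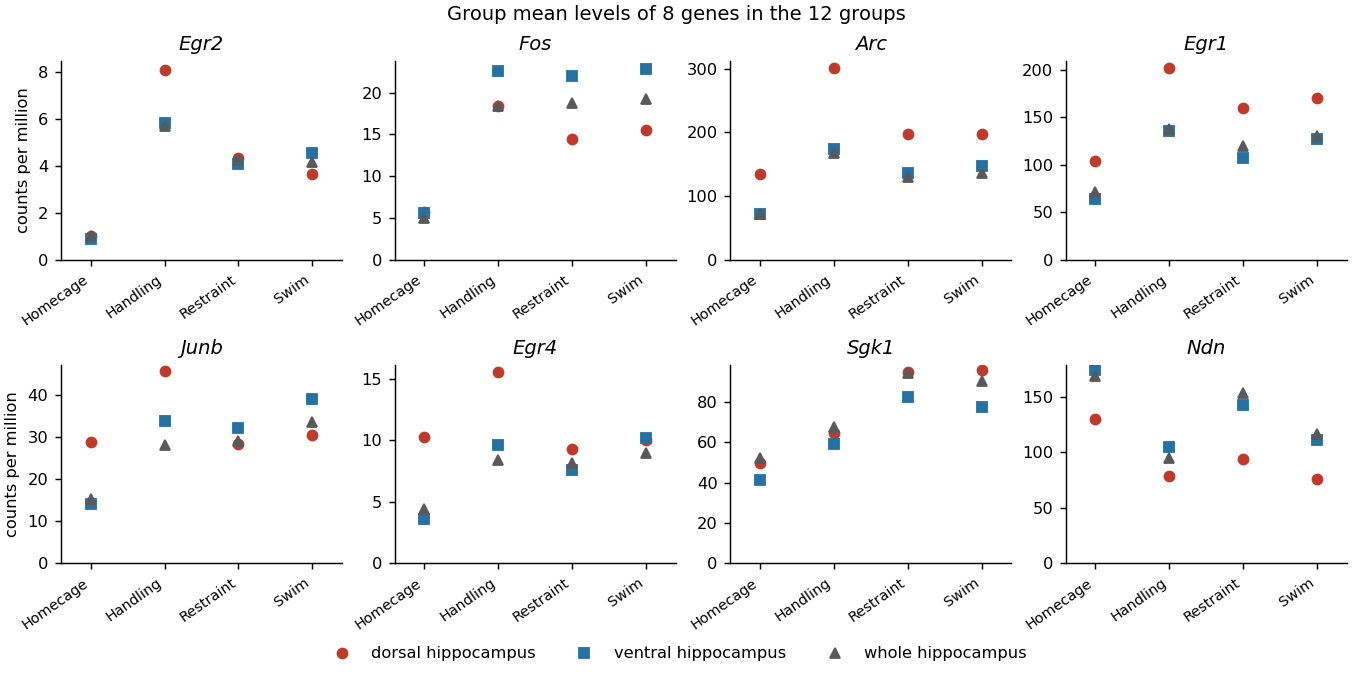
Group mean levels (CPM) of 8 genes, on linear axes from 0, under Homecage, Handling, Restraint and Swim, with circles for dorsal, squares for ventral and triangles for whole hippocampus; no error bar can be drawn from group means. Dorsal Homecage levels of Arc, Egr1, Junb and Egr4 stand above those of the other tissue samples, and Ndn is lower after Handling in all 3.

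Handling can also be set beside the other treatments of dorsal hippocampus, Restraint and Swim, whose tables use the same Homecage libraries. Because of those shared libraries the standard error of a difference is an upper bound. Restraint had 84 of 13633 genes past the test (0.616%) and Swim 61 of 13645 (0.447%). Against Handling, 2 of 13569 genes differed after Restraint (0.0147%) and 3 of 13573 after Swim (0.0221%). All of these were higher than after Handling. With errors from a t quantile, which are smaller, the split was 9 higher and 5 lower for Restraint and 3 higher and 6 lower for Swim. Choroid plexus markers also moved after Restraint: over the 10 measured in both tables, 4 were called higher after Restraint (median 2.10, summed level 247 CPM in Homecage and 2162 CPM after Restraint) and 0 after Handling (median 0.32). Their part in the Restraint values was not tested. Sgk1 was the one in the normal test that is among the 17 Handling genes. Its dorsal levels were 49.8 CPM in Homecage, 64.5 after Handling, 94.8 after Restraint and 95.7 after Swim. The Restraint minus Handling difference of its log2 fold change was 0.57 ± 0.12 (adjusted p 0.0081) and the Swim minus Handling difference 0.58 ± 0.10 (adjusted p 3.6e-04).

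The other genes that differed were Apold1 and Txnip. Apold1 stood at 2.12, 3.22, 10.6 and 6.83 CPM in the 4 dorsal groups, in the order Homecage, Handling, Restraint and Swim. It exceeded Handling by 1.77 ± 0.27 after Restraint (adjusted p 1.6e-06) and by 1.11 ± 0.24 after Swim (adjusted p 0.0274). Txnip, which binds thioredoxin and restrains glucose uptake, stood at 16.5, 19.4, 24.7 and 30.7 CPM and exceeded Handling by 0.67 ± 0.14 after Swim (adjusted p 0.0104). Its Restraint minus Handling difference was 0.35 ± 0.15 (adjusted p 1.00).

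The immediate early transcription factors are given side by side for the 3 treatments, over the 24 measured in all of them. After Handling 7 rose (median 0.43), after Restraint 10 (0.20) and after Swim 7 (0.22), and none fell, in the authors' deposited tables. Of 35 activity-regulated effectors 3, 4 and 4 rose, with medians of 0.12, 0.06 and 0.08. Single genes called after Handling were picked for their Handling values, so a lower value after another treatment is partly set by that choice. Egr2 stood at 1.00, 8.08, 4.32 and 3.66 CPM, with differences of -0.88 ± 0.33 for Restraint (95% interval -1.53 to -0.23, adjusted p 1.00) and -1.08 ± 0.36 for Swim (-1.79 to -0.38). Arc stood at 134, 300, 198 and 197 CPM, with a difference of -0.57 from either treatment (intervals -1.08 to -0.07). Arc itself was not called after Restraint or Swim in dorsal hippocampus, with adjusted p of 0.0828 and 0.0808 in the authors' deposited tables.

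Ndn stood at 130 CPM in dorsal Homecage mice, 78.3 after Handling, 93.6 after Restraint and 75.9 after Swim. It passed after Swim (-0.78 ± 0.13) and not after Restraint (-0.43 ± 0.18, adjusted p 0.349) in the authors' deposited tables, and the Restraint minus Handling difference was 0.30 ± 0.23 (95% interval -0.14 to 0.75). Hes5 stood at 5.02, 3.56, 2.00 and 1.51 CPM. It fell by 1.30 ± 0.21 after Restraint and by 1.71 ± 0.21 after Swim in the authors' deposited tables, and the differences from Handling were -0.81 ± 0.29 and -1.22 ± 0.29 (adjusted p 1.00 and 0.119).

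**Figure D5:**
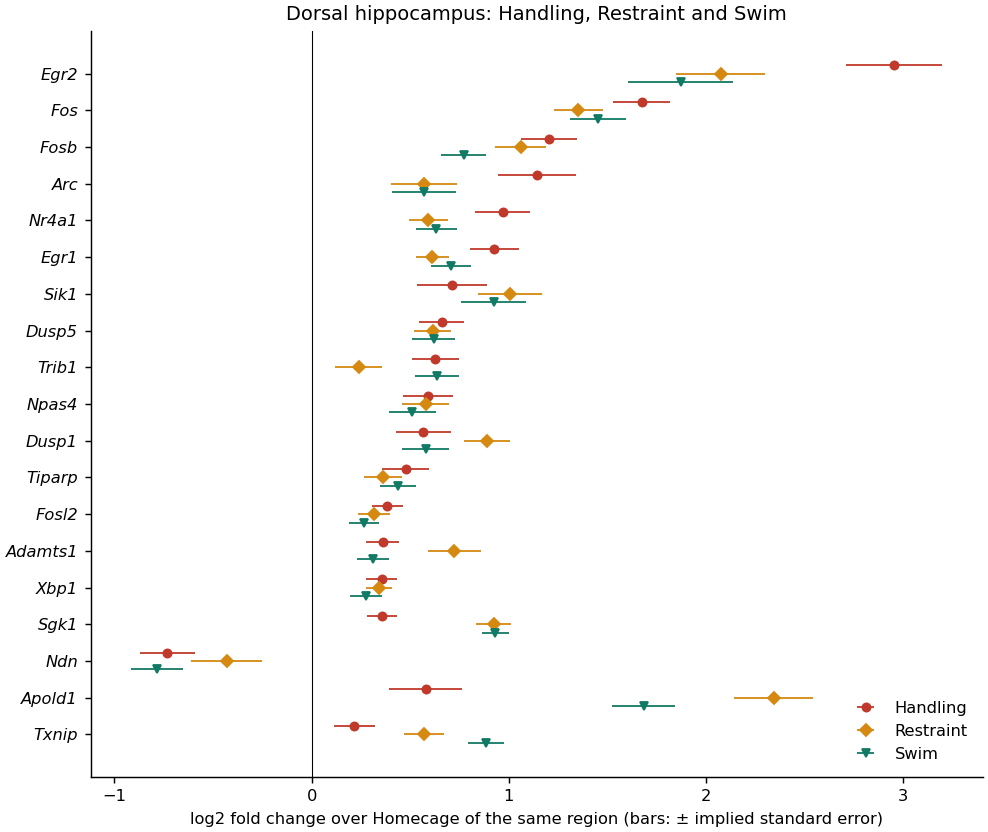
Log2 fold change over dorsal Homecage after Handling, Restraint and Swim for the 17 genes called after Handling and for Apold1 and Txnip, with bars of ± the implied standard error. Sgk1, Apold1 and Txnip lie further right after Swim than after Handling, and Egr2 and Arc lie further left after Restraint and Swim.

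The genes on either side of the threshold show where the calls end. Sik1, Tiparp and Dusp1 were the last inside it, each with an adjusted p of 0.0442 in the authors' deposited table. Nr4a2 (adjusted p 0.0661), Fam46a (0.0818) and Spry4 (0.0914) were the first outside it in the authors' deposited table. The largest change outside it was 2.30 ± 0.66 for Gm10273 (2.95 and 14.8 CPM), a predicted gene whose reads may be shared with a near-identical copy, so its value is uncertain. Log2 fold change ran against transcript GC content over 13578 genes (Spearman rho -0.33, across genes, which are not independent replicates), and against length it was 0.05. Subtracting that trend left 16 of the 17 calls, as given above for Tiparp and Per1.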

How the data were processed

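Poly(A)-enriched RNA of 60 hippocampus libraries was measured, and the authors deposited 10 tables that each compare 2 groups. Per the file headers, the authors' values are the mean estimated count of either group, the fold change as a ratio, its log2 value, and a p-value with its adjusted p. Bowtie 0.12.2 and the assembly mm8 appear in the submitters' processing notes with no step named, and the authors' test, like their counting program, was not given in the sources used here. Single libraries were not analysed here, so the edgeR test that was planned had no counts to run on, and calls rest on the authors' adjusted p at 0.05. The adjusted p matched a Benjamini-Hochberg adjustment computed here, and 146 repeated entries were dropped.

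A standard error was derived as the absolute log2 fold change over the normal quantile of its p. Differences between comparisons were divided by the root of their summed squared errors, compared with a normal distribution (two-sided), and adjusted by Benjamini-Hochberg over all shared genes, ignoring any pairing of dorsal and ventral libraries. The procedure was run on simulated data whose p came from the same normal formula, so recovery of the error there was set in advance. CPM divides a group mean by the sum of group means, and the counting error is the Poisson error of the log ratio of both groups' summed counts. GC content came from GENCODE M21 (GRCm38), with a value for 99.8% of genes, and its trend was a lowess curve (fraction 0.3). Promoters came from RefSeq on GRCm38.p6. Group means carry no spread, and the p-values compare groups of libraries labelled as replicates, 5 mice per condition per the series record. How they estimate the spread between those libraries is unknown, since the authors' test was not given. The gene lists, members and tests were chosen with earlier results of these data known. Named are all calls, the next 15 genes by p, up to 6 genes per list, up to 10 per difference, and a set of always-named genes. Further list members were chosen after their values were seen. Alternatives were other thresholds, a minimum of 100 on the summed means, GC-trend subtraction, total-count scaling, a change of at least 0.5, t-based errors, pseudocounts, and a minimum of 1 CPM added after seeing the data. Some items are not reported here. Tools were Python 3.11.15, pandas 2.3.3, scipy 1.17.1 and statsmodels 0.14.6.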

Additional observations from a re-analysis of the deposited data

Results flagged for a closer look

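After Handling, 12 genes differed between ventral and dorsal hippocampus past an adjusted p of 0.05, all higher in ventral, by the normal test on the difference of both log2 fold changes. Ttr, Kl, Enpp2 and F5 are on the choroid plexus marker list, of which 11 members were measured in both tables. Of these 11, 10 were called higher in ventral Handling (median 2.46) and 0 in dorsal Handling (median 0.36), and 4 more had a value in the ventral table alone. Over all 15 markers measured in ventral Handling, 14 were called higher, with a median of 3.16. Ttr stood at 40.5 and 89.5 CPM in dorsal Homecage and Handling mice and at 27.6 and 1168 CPM in ventral ones, a ventral minus dorsal difference of 4.30 ± 0.97 (adjusted p 0.0127). Mfrp differed by 4.06, F5, a coagulation factor, by 3.63, and 1500015O10Rik by 3.01. Trpv4, a cation channel, differed by 2.46, Abca4, a lipid transporter, by 2.21, and Enpp2, which makes lysophosphatidic acid, by 2.18. Kl, which encodes klotho, differed by 1.59, the collagen genes Col4a4 and Col9a3 by 1.95 and 1.67, and the anion exchanger Slc4a2 by 0.76. Gm4737, a predicted gene, differed by 2.62, with -1.68 in dorsal and 0.93 in ventral hippocampus. Apart from Gm4737, whose dorsal adjusted p was 0.219 in the authors' deposited table, their dorsal log2 fold changes lay between -0.24 and 1.09. How much choroid plexus each dissection held was not tested.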

How the results depend on the processing

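The 17 dorsal calls numbered 12 to 20 under the 8 alternatives tried for them, with 16 shared after GC subtraction. No direction reversed, but only GC subtraction and total-count scaling alter a fold change, so the other alternatives could not reverse one. The shift by total-count scaling was 0.006 on the log2 scale. One of the 8 alternatives, leaving out marker genes of other tissues, could remove no call since none of the 17 is such a marker. Of 42 alternatives over all counts, 34 stayed within 1.5 times and 8 moved beyond it. The 12 ventral minus dorsal differences became 7 at an adjusted p of 0.01, 6 with group means summing to 100 or more, 7 with the marker genes of other tissues left out, and 20 with errors from a t quantile. With such errors the whole minus dorsal count went from 0 to 3, the Restraint minus Handling count from 2 to 14 (9 higher, 5 lower) and the Swim minus Handling count from 3 to 9 (3 higher, 6 lower), where the main test gave higher values alone, since that quantile gives smaller errors. At an adjusted p of 0.01 the Swim minus Handling count was 1. Of 226 named genes, GC subtraction added Per1 and removed Tiparp, and a pseudocount of 0.5 on CPM moved 2. No paired analysis was possible because the tables hold group means without values per library; for the same reason replicates could not be left out, and edgeR, DESeq2 and other scalings of counts were not run. Depth limits low genes: at 1.00 CPM a library held about 23.4 counts, as for Egr2.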
